A study of Mus musculus with 15 samples.

Results

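DNA replication and S-phase genes are the genes whose products open replication origins, copy DNA, supply its nucleotides and package the new strands. Here 43 such mouse genes, listed by name, were followed in thymocytes, the T cells that develop in the thymus. The list was chosen with earlier results of these data known, and the values that follow describe it. Of the 43 genes, 42 had a probe set of their own on the array, and all 42 were among the 11871 genes tested of 18193 with a probe set. Chaf1a, the large subunit of the histone-loading factor CAF-1, had no probe set named for it alone and was not analysed here.

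A cell licenses each origin once per cycle, before S phase, when the origin recognition complex, Cdc6 and Cdt1 load the ring of Mcm2 to Mcm7 onto DNA. Kinases then recruit Cdc45 and the GINS complex, which turn the ring into a moving helicase behind which DNA polymerases follow. E2F transcription factors switch on many of these genes as cells enter S phase, and the E cyclins are among their targets. In the thymus, T cell precursors divide fast just before and as they become CD4+CD8+ cells, and most CD4+CD8+ cells then rest while they wait for selection.

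RNA from sorted thymocytes of young adult mice on the C57BL/6 background was measured on Affymetrix arrays, with 3 arrays in each of 5 groups. PreDP and PostDP cells were CD4+CD8+ thymocytes taken before (CD69-TCRβ-) and after (CD69+TCRβ+) positive selection, from B2m-/- mice. These mice lack the light chain of MHC class I, so their thymocytes are selected only on MHC class II. SM&M1 cells (Qa2-CD69+) and M2 cells (Qa2+CD69-) were less and more mature CD4 single-positive thymocytes from Rag2-GFP BAC transgenic mice. Their sort used the GFP signal of recently rearranging cells, and it dumped cells stained for NK1.1, CD25 or GL3. Tak1-deficient SM&M1 cells (Qa2-CD69+) came from Tak1f/f CD4Cre mice, in which Cre driven by CD4 elements deletes Tak1 (gene symbol Map3k7) in cells that have switched on CD4; Tak1 is a kinase that feeds into NF-κB signalling. The labels describe the GFP gate and the dump stains for the Rag2-GFP mice only. Stage, mouse line and the described sort therefore change together between the CD4+CD8+ groups and SM&M1. Tak1, mouse line and the described sort change together between SM&M1 and Tak1-deficient SM&M1. Their parts in a difference cannot be told apart. Each array holds RNA of a cell mixture, in which fewer cycling cells and less RNA per cell cannot be told apart.

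Values are deposited signal intensities, taken here as log2(signal + 16), so differences of dim genes are understated. A gene was called in a comparison when its adjusted p was under 0.05 in limma, with Benjamini-Hochberg adjustment over the 11871 genes. The median signal of 14 arrays lay between 80.5 and 121. It was 168 in Tak1-deficient SM&M1 replicate 2, whose group had a lowest correlation between arrays of 0.873, against 0.965 or more in the other groups. The summed signal of 5 CD4+CD8+ stage markers, such as Cd8a and Rag1, was 57125 to 81153 in PreDP, 17470 to 27456 in PostDP and 1611 to 3806 in SM&M1. The summed signal of 6 CD4 single-positive markers was 5595 to 7543 in PreDP and PostDP and 18716 to 33593 in the other 3 groups. Within this list, Cd4 was lower in PostDP than in PreDP (group means 11.47 and 12.64). Il7r (10.26 and 6.00), Ccr7 (9.95 and 6.92), Zbtb7b (9.24 and 6.95) and S1pr1 (7.49 and 6.76) were higher in PostDP, and Klf2 (7.70 and 7.63) differed little. Map3k7, the deleted gene, was at 10.40, 10.46 and 10.42 in SM&M1 and at 4.76, 6.07 and 5.35 in the Tak1-deficient arrays.

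By group mean, most of the replication genes were highest in PreDP and lowest in PostDP. The mean of PostDP was the lowest of the 5 groups for 38 of 42 genes (90.5%), against 18.3% of all genes tested. The mean of PreDP was the highest for 29 of the 42 (69%), against 24.7% of all genes. Over the 42 genes, the median distance from the PreDP mean was 0.48, -0.36 and -0.09 in PreDP replicates 1, 2 and 3. It was -1.16, -1.29 and -1.42 in the PostDP arrays and -0.14, -0.45 and -0.44 in the SM&M1 arrays. In M2 it was -0.27, -0.85 and -0.79, and in Tak1-deficient SM&M1 -0.29, -0.94 and -0.04. Every PostDP array lay below the lowest array of any other group, while the same median over all genes tested stayed between -0.02 and 0.16. By the median of the 42 genes, PreDP arrays overlapped those of the CD4 single-positive groups. PreDP replicate 2 lay below SM&M1 replicate 1, M2 replicate 1 and Tak1-deficient SM&M1 replicates 1 and 3.

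**Figure D1:**
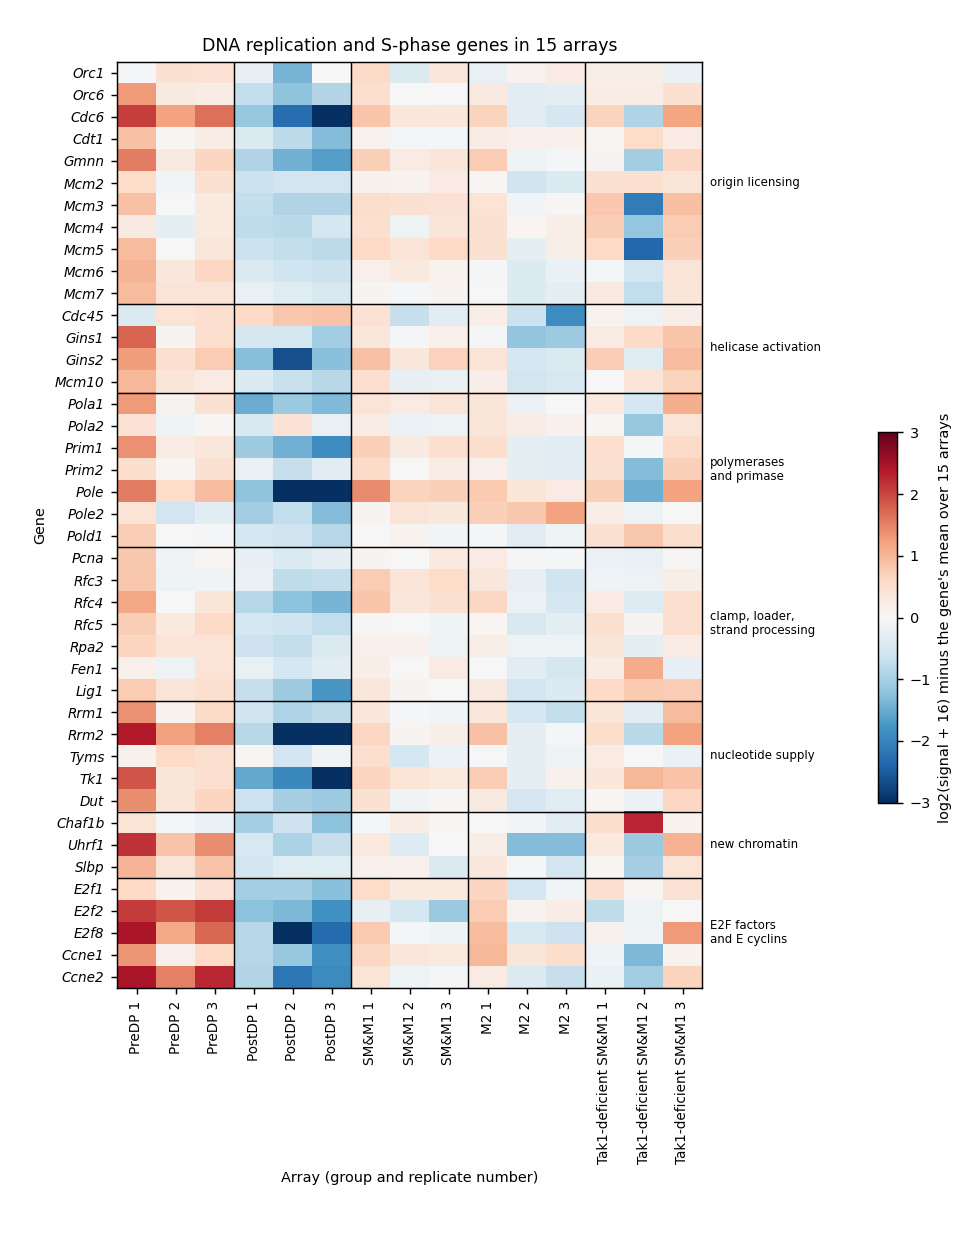
Rows are the 42 measured replication genes, ordered by role, and columns are the 15 arrays; colour gives log2(signal + 16) minus the gene's mean over the 15 arrays, with values past 3 in either direction shown at the end of the scale. The 3 PostDP columns are blue in nearly every row, Cdc45 runs the other way, and Tak1-deficient SM&M1 replicate 2 differs from the other arrays of its group.

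**Figure D2:**
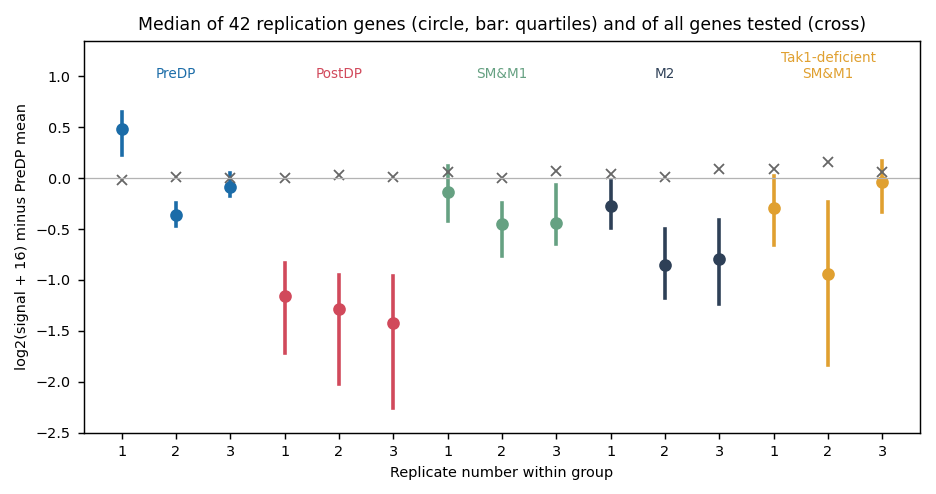
Each circle is the median over the 42 replication genes of log2(signal + 16) minus the gene's PreDP mean in 1 array, with a bar from the lower to the upper quartile; crosses are the same median over all 11871 genes tested. The PostDP circles lie between -1.16 and -1.42, and those of the other 12 arrays lie between -0.94 and 0.48.

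Arrays of a group also differed in common. Replicate 1 was the highest of the 3 arrays for 37 of the 42 genes in PreDP, for 30 in PostDP, for 34 in SM&M1 and for 40 in M2. Over all genes tested it was the highest for 36.4%, 32.1%, 34% and 31.8%, in the same order. In Tak1-deficient SM&M1, replicate 3 was the highest for 30 of the 42 genes, against 26.8% of all genes tested. Replicate 2 was the lowest for 30, against 43.4% of all genes, and it was the highest for 47.6% of all genes. Markers of other stages and cell types also set some of these arrays apart. The summed signal of granulocyte markers (5 of 6 above the level needed for testing, with Mpo below it) was 3745 in SM&M1 replicate 1, against 191 and 297 in the other SM&M1 arrays. It was 4185 in M2 replicate 1, against 443 and 322. The sum for macrophage markers (5 of 10, with C1qa, C1qb, C1qc, Cd14 and Mertk below the level) was 1926 in SM&M1 replicate 1, against 664 and 830, and 1951 in M2 replicate 1, against 745 and 862. That of NK and innate-like T cell markers (6 of 7, with Ncr1 below) was 4268 against 1123 and 957 in SM&M1, and 4736 against 1325 and 1557 in M2. The CD4+CD8+ stage sum was also highest in replicate 1, at 3806 against 1611 and 1639 in SM&M1 and 3392 against 1553 and 1378 in M2. It was 81153 against 65007 and 57125 in PreDP, and 27456 against 21900 and 17470 in PostDP. The early thymocyte sum was 3352 against 1513 and 1911 in SM&M1, and 2628 against 962 and 1049 in M2. In PreDP, replicate 1 had the highest sum of its group for early thymocyte markers (23372 against 20386 and 16254), for NK and innate-like T cell markers (4507 against 2886 and 3699), for 5 B cell markers (2025 against 1626 and 1691) and for granulocyte markers (297 against 208 and 219). Its macrophage sum was the lowest, 526 against 711 and 785. In PreDP the early thymocyte, NK and B cell sums were mostly Dntt, Gzma and Cd79b, with group means of 14.24, 11.76 and 10.55. The part of these cells in the results was not tested.

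PostDP cells were set against PreDP cells to follow CD4+CD8+ thymocytes through positive selection. Of the 42 replication genes, 30 were lower in PostDP, none was higher and 12 did not pass in limma, where 14.9% of all genes tested were called, 7.57% lower and 7.35% higher (6.55% and 3.71% with arrays centred on their median). At an unadjusted p under 0.05, 35 were lower and 0 higher, against 13.2% and 12.5% of all genes. The median difference was -1.23, against 0.01 over all genes. For 39 genes every PostDP array lay below every PreDP array, a pattern shown by 19.6% of all genes. Each of the 7 roles contributed, from 4 of 7 clamp and strand genes to all 5 E2F factors and E cyclins.

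Among the 11 origin licensing genes, 7 were lower. Cdc6, which helps load the Mcm ring, was at 10.14, 9.27 and 9.72 in PreDP and at 6.94, 5.78 and 4.33 in PostDP. All PostDP arrays were lower, and they spread widely; the difference was -4.03 ± 0.61 (SE, n = 3 per group, adjusted p = 0.00053 in limma). Gmnn, the inhibitor of Cdt1 that blocks a second licensing, was at 11.86, 10.59 and 10.96 in PreDP and at 9.41, 8.87 and 8.67 in PostDP. The groups did not overlap and Gmnn fell by 2.16 ± 0.42 (adjusted p = 0.00294). Orc6 (-1.53 ± 0.28) and Cdt1 (-1.23 ± 0.24), parts of the loading machinery, also fell. Of the ring itself, Mcm6 (-1.22 ± 0.23), Mcm7 (-0.93 ± 0.26) and Mcm2 (-0.90 ± 0.19) were lower. Mcm3 (-1.23 ± 0.58), Mcm5 (-1.15 ± 0.60) and Mcm4 (-0.79 ± 0.41) did not pass, although their arrays did not overlap either. When these groups were fitted alone and blocked on replicate number, Mcm3 (adjusted p = 0.00848) and Mcm5 (0.0154) passed. Mcm4, the smallest difference of the role, was at 11.92, 11.38 and 11.95 in PreDP and at 10.88, 10.85 and 11.13 in PostDP. Its adjusted p was 0.249 over all arrays, 0.028 in a fit of these groups alone, and 0.0186 once replicate number was added as a block. Orc1, the largest origin recognition subunit, differed by -0.83 ± 0.34 with overlapping arrays (adjusted p = 0.138). Its other probe set, with group means of 8.09 in PreDP and 6.66 in PostDP, differed by -1.44.

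Of the 4 genes that activate the helicase, 3 were lower. Gins2, a GINS subunit, was at 10.01, 9.24 and 9.52 in PreDP and at 7.49, 6.14 and 7.52 in PostDP. Its groups were far apart, with a difference of -2.54 ± 0.42 (adjusted p = 0.00095). Gins1, another GINS subunit, was at 10.79, 9.12 and 9.55 against 8.53, 8.53 and 8.01, and fell by 1.46 ± 0.39 (adjusted p = 0.0225). PreDP replicate 1 stood high for Gins1, whose adjusted p was 0.0863 without it, 0.0976 without PostDP replicate 3 and 0.0538 over the mean of its probe sets. Mcm10, which joins the helicase as it starts, fell by 1.18 ± 0.28. Cdc45, the helicase cofactor, was the exception among the 42 genes, and its 2 probe sets disagreed. The probe set used here was at 7.42, 8.28 and 8.36 in PreDP and at 8.46, 8.67 and 8.72 in PostDP, a difference of 0.60 ± 0.43 that did not pass (adjusted p = 0.457). The other was at 9.0, 8.30 and 8.49 in PreDP and at 6.43, 5.63 and 5.90 in PostDP, a difference of -2.61. Every PostDP array was above the PreDP arrays by the former and below them by the latter. Averaged over its probe sets, Cdc45 was lower in PostDP by -1.01 (adjusted p = 0.0176).

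Of 7 polymerase and primase genes, 5 were lower. Pole, the catalytic subunit of the leading-strand polymerase epsilon, was at 9.37, 8.38 and 8.75 in PreDP and at 6.62, 4.62 and 4.52 in PostDP. PostDP replicate 1 stood above the other arrays of its group and still below every PreDP array, and the difference was -3.58 ± 0.64 (adjusted p = 0.00178). Prim1, the catalytic subunit of primase, was at 11.91, 10.78 and 10.88 against 9.49, 9.10 and 8.69, and fell by 2.09 ± 0.33 (adjusted p = 0.000701). Pola1 (-1.93 ± 0.36), the catalytic subunit of polymerase alpha, fell, as did Pold1 (-0.89 ± 0.20) and Pole2 (-0.87 ± 0.24), subunits of polymerases delta and epsilon. The call of Pole2 was lost with these groups fitted alone and the replicate block (adjusted p = 0.0759). Prim2, the large primase subunit, differed by -0.77 ± 0.40 without passing (adjusted p = 0.258, or 0.00978 with that block). Pola2, the accessory subunit of polymerase alpha, was at 9.55, 8.99 and 9.14 in PreDP and at 8.66, 9.55 and 8.90 in PostDP. Its groups overlapped and the difference of -0.19 ± 0.34 was the smallest of the 42 genes. Its sign turned with the processing, to 0.18 over the mean of its probe sets.

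Of 7 genes for the sliding clamp, its loader and strand processing, 4 were lower. Lig1, the ligase that joins Okazaki fragments, was at 10.64, 10.26 and 10.37 in PreDP and at 9.20, 8.82 and 8.13 in PostDP. All its PostDP arrays were lower, by -1.71 ± 0.27 in the mean (adjusted p = 0.000644). Rfc4, a clamp loader subunit, was at 11.06, 9.90 and 10.26 against 9.05, 8.66 and 8.49, and fell by 1.67 ± 0.34 (adjusted p = 0.00439). Rfc5, another loader subunit (-1.16 ± 0.18), and Rpa2, which coats single-stranded DNA (-1.08 ± 0.19), also fell. Pcna, the clamp itself, was at 14.19, 13.29 and 13.45 in PreDP and at 13.14, 12.98 and 13.08 in PostDP, a difference of -0.58 ± 0.21 that did not pass (adjusted p = 0.0824). Rfc3 (-0.74 ± 0.28) did not pass either (adjusted p = 0.105, or 0.0198 with these groups fitted alone and the replicate block). Fen1, the flap nuclease, was at 10.74, 10.44 and 10.99 against 10.36, 10.05 and 10.24. Its arrays did not overlap, but the difference of -0.51 ± 0.28 was the smallest of the role and did not pass (adjusted p = 0.298).

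Of 5 genes that supply nucleotides, 4 were lower. Rrm2, the regulated subunit of ribonucleotide reductase, was at 13.54, 12.40 and 12.68 in PreDP and at 10.35, 7.86 and 7.84 in PostDP. Its difference was -4.19 ± 0.64 (adjusted p = 0.000575), with PostDP replicate 1 well above the other PostDP arrays. E2f8, Cdc6 and Pole had PostDP arrays near the lowest value this scale can give, so their differences cannot be ranked against that of Rrm2. With a pseudocount of 1 the differences were -4.99 for E2f8, -4.87 for Cdc6, -4.57 for Pole and -4.25 for Rrm2. Tk1, thymidine kinase 1, was at 10.50, 8.98 and 9.10 against 7.08, 6.69 and 5.23, and fell by 3.19 ± 0.48 (adjusted p = 0.000468). Dut, which breaks down dUTP, fell by 1.72 ± 0.30, and Rrm1, the large subunit of ribonucleotide reductase, by 1.45 ± 0.37. Tyms, thymidylate synthase, was at 6.96, 7.42 and 7.30 in PreDP and at 6.87, 6.26 and 6.73 in PostDP. Its arrays did not overlap, and its difference of -0.61 ± 0.25 did not pass (adjusted p = 0.138). The other Tyms probe sets lay below the level needed for testing and disagreed, with differences of -0.43, 0.36 and -1.69.

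Of 3 measured new chromatin genes, 2 were lower. Uhrf1, which brings the maintenance DNA methyltransferase to new DNA, was at 12.82, 11.50 and 12.05 in PreDP and at 10.17, 9.69 and 9.96 in PostDP. It fell by 2.18 ± 0.52 (adjusted p = 0.0118, or 0.0589 without PreDP replicate 1). Slbp, which binds histone mRNA, was at 12.52, 11.89 and 12.34 against 10.92, 11.12 and 11.14, with a difference of -1.19 ± 0.33 (adjusted p = 0.0279). This call was lost without any 1 of PreDP replicates 1 and 3 or PostDP replicates 1, 2 and 3 (0.0692 to 0.105). It was also lost with arrays centred on their median (0.0687) and over the mean of its probe sets (-0.36, adjusted p = 0.229). Chaf1b, a CAF-1 subunit, was at 9.63, 9.18 and 9.01 against 8.19, 8.60 and 7.98. Its difference of -1.02 ± 0.42 did not pass (adjusted p = 0.136), but did in a fit of these groups alone (0.0211) and with the replicate block added (0.021).

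All 5 E2F factor and E cyclin genes were lower. E2f8, an E2F repressor made in S phase, was at 10.62, 9.30 and 9.89 in PreDP and at 7.31, 4.28 and 5.86 in PostDP. Its PostDP arrays spread widely, replicate 2 lying lowest and all of them below PreDP, and the difference was -4.12 ± 0.67 (adjusted p = 0.00089). Ccne2, cyclin E2, was at 10.41, 9.48 and 10.22 against 7.09, 5.79 and 6.05, and fell by 3.73 ± 0.44 (adjusted p = 6.43e-05). E2f2, an E2F activator, was at 12.16, 11.96 and 12.15 in PreDP and at 8.84, 8.72 and 8.25 in PostDP. Its arrays lay close together within each group, and its difference of -3.49 ± 0.27 had the lowest adjusted p of the 42 genes (1.44e-06). Its other probe set differed by -3.50. Ccne1, cyclin E1, fell by 1.97 ± 0.39. E2f1, another activator, was the smallest change of the role by the probe sets used. It was at 8.86, 8.36 and 8.70 against 7.23, 7.27 and 7.0, and fell by 1.48 ± 0.25 (adjusted p = 0.00137). Another E2f1 probe set above the level needed for testing differed by -2.66.

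The count of lower genes in this comparison was 23 without PreDP replicate 1 and 22 without replicate 1 of both groups, and in each setting run 0 genes were called higher. The summed signal of early thymocyte markers was 16254 to 23372 in PreDP and 4617 to 5590 in PostDP. Most of this sum was Dntt, whose group mean was 14.24 in PreDP and 12.26 in PostDP. Il2ra (6.47 and 6.63), Kit (7.10 and 6.91) and Hes1 (6.66 and 6.29) differed little. This list held 4 of 6 markers above the level needed for testing, with Erg and Mycn below it. The sum of NK and innate-like T cell markers was 2886 to 4507 in PreDP and 1002 to 1118 in PostDP. That of B cell markers was 1626 to 2025 and 587 to 893. In the NK list Gzma was lower in PostDP (group means 11.76 in PreDP and 9.14 in PostDP), and Tbx21 slightly lower. Nkg7 (4.86 and 7.17), Il2rb (4.45 and 6.92), Zbtb16 (6.13 and 7.51) and Klrd1 (5.73 and 6.16) were higher. In the B cell list Cd79b was lower (10.55 and 8.59), and Pax5 slightly lower (6.14 and 5.97). Cd79a (5.76 and 6.27), Ms4a1 (6.93 and 7.29) and Blnk (6.53 and 6.59) were not. The part of these 3 lists in the result was not tested.

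**Figure D3:**
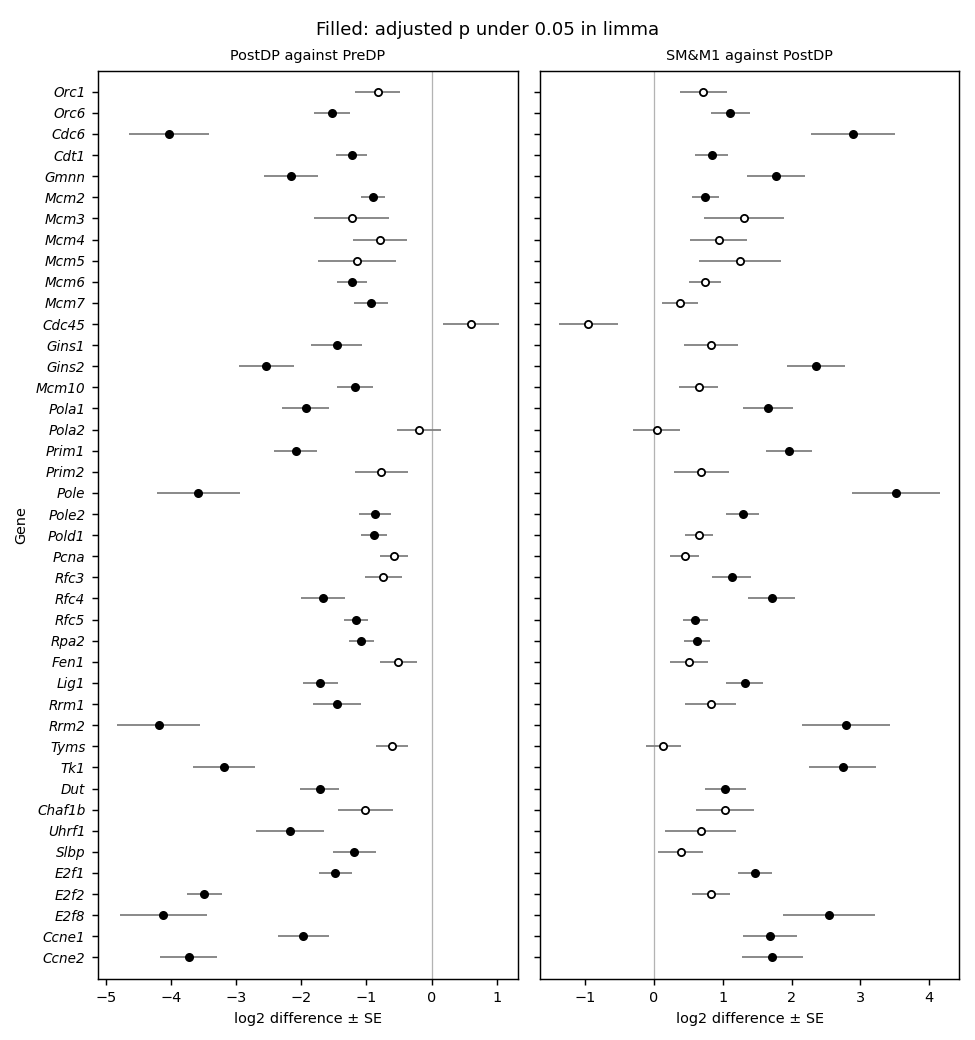
Points are differences in log2(signal + 16) for the 42 replication genes with their standard errors, for PostDP minus PreDP on the left and SM&M1 minus PostDP on the right; filled points had an adjusted p under 0.05 in limma. On the left 30 filled points lie below 0, and on the right 22 lie above it. The PostDP arrays enter both panels.

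Since the genes moved together, the 250 bases before their start sites were searched in RefSeq promoters (GRCm38.p6), of which 36 of the 43 genes had an entry. Ccne2, Gins1, Gins2, Gmnn, Mcm4, Pole and Prim2 had none. The E2F motif was searched as TTTGGCGC, TTTGCCGC, TTTCGCGC or TTTCCCGC on either strand, none of which contains the CCAAT motif. It was found in 8 of the 36 genes (22.2%), against 3.94% of the tested genes with a promoter entry. By promoter, 8 of 42 held it (19%), against 3.26% of promoters of tested genes and 1.86% of all promoters. With 50 bases after the start included, 14 of 36 genes held it (38.9%), against 4.68% of tested genes. CCAAT on either strand was found in 21 of 36 genes (58.3%), against 40.1% of tested genes. Genes with an E2F match (Cdc6, Mcm5, Mcm6, Mcm7, Orc1, Pola1, Rfc3 and Uhrf1) had a median PostDP minus PreDP difference of -1.19. The 27 measured genes without one had a median of -1.23. Differences ran from -4.03 to -0.74 with a match, and from -4.19 (Rrm2) to 0.60 (Cdc45) without one. A match is a string of letters and not a measured binding site. Shown are Cdc6 (chr11:98907901-98908150, plus strand), Uhrf1 (chr17:56304063-56304312, plus strand) and Pola1 (chrX:93632156-93632405, minus strand), the genes with a match that fell most, with the match in capitals. Also shown is Pola2 (chr19:5964207-5964456, minus strand), which had the smallest difference and no match. Each runs 5′ to 3′ and ends at the base before the start site, and a match on the opposite strand appears as its reverse complement.
Cdc6: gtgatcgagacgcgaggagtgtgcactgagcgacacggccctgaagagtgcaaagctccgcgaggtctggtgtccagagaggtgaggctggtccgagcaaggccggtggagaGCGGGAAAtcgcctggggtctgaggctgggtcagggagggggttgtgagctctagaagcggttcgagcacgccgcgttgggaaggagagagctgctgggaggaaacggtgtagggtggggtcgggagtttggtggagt
Uhrf1: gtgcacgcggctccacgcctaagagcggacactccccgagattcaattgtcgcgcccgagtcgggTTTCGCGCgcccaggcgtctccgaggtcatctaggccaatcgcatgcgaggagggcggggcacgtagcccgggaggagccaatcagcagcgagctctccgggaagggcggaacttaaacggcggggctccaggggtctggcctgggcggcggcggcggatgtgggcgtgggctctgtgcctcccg
Pola1: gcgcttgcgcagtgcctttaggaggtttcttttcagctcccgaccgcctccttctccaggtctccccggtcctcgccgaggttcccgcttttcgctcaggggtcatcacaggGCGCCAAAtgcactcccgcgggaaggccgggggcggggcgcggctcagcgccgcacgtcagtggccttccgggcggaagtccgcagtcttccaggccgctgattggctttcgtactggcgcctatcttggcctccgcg
Pola2: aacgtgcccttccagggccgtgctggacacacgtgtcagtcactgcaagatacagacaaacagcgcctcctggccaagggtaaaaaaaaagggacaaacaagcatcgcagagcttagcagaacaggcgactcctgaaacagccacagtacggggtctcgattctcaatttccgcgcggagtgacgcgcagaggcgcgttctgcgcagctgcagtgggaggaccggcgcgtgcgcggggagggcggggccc
The match begins 138 bases before the start in Cdc6 and in Pola1, on the opposite strand, and 185 bases before it in Uhrf1.

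The comparison of SM&M1 with PostDP follows cells from selection to the CD4 lineage. Of the 42 replication genes, 22 were higher in SM&M1, none was lower and 20 did not pass in limma, where 12% of all genes tested were called, 7.84% higher and 4.14% lower. At an unadjusted p under 0.05, 31 were higher and 1, Cdc45, was lower, against 14.8% and 9.75% of all genes. The median difference was 0.99, against 0.03 over all genes. For 37 genes every SM&M1 array lay above every PostDP array, a pattern of 23.1% of all genes. The PostDP arrays are those of the comparison with PreDP, so the directions of the 2 comparisons are not independent.

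Pole rose from 6.62, 4.62 and 4.52 in PostDP to 9.25, 8.50 and 8.55 in SM&M1, by 3.52 ± 0.64 (adjusted p = 0.00293). Cdc6 reached 8.91, 8.42 and 8.39, a rise of 2.89 ± 0.61 (adjusted p = 0.00735), and its SM&M1 arrays lay closer together than its PostDP arrays. Rrm2 reached 11.79, 11.25 and 11.38, a rise of 2.79 ± 0.64 (adjusted p = 0.0121). All SM&M1 arrays of these genes lay above all PostDP arrays. Tk1 was at 9.27, 9.04 and 8.92, higher by 2.74 ± 0.48 (adjusted p = 0.00216). E2f8 was at 8.94, 8.12 and 8.03, higher by 2.54 ± 0.67 (adjusted p = 0.0251). Gins2 was at 9.65, 9.11 and 9.45, higher by 2.35 ± 0.42 (adjusted p = 0.00247). For these enzymes, this repressor and this helicase subunit the groups were again apart. Prim1 was at 11.25, 10.82 and 11.06, higher by 1.96 ± 0.33 (adjusted p = 0.00183). Gmnn was at 11.04, 10.56 and 10.68, higher by 1.78 ± 0.42 (adjusted p = 0.0135).

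By role, 5 of 11 licensing genes were higher, namely Cdc6, Gmnn, Orc6 (1.11 ± 0.28), Cdt1 (0.84 ± 0.24) and Mcm2 (0.75 ± 0.19). The other Mcm ring genes differed by 0.38 to 1.31 without passing, with non-overlapping arrays. Of the helicase activation genes 1 of 4 was higher, and Cdc45 differed by -0.95 ± 0.43 in the probe set used and by 1.79 in the other. Of the polymerase genes 4 of 7 were higher, with Pola1 (1.66 ± 0.36) and Pole2 (1.29 ± 0.24) beside Pole and Prim1. Clamp and strand genes were higher in 5 of 7 cases, led by Rfc4 (1.71 ± 0.34), Lig1 (1.32 ± 0.27) and Rfc3 (1.13 ± 0.28). Pcna (0.45 ± 0.21) and Fen1 (0.51 ± 0.28) did not pass. Nucleotide genes were higher in 3 of 5 cases, with Dut (1.04 ± 0.30) beside Rrm2 and Tk1, while Tyms differed by 0.14 ± 0.25. None of the 3 new chromatin genes passed, and Uhrf1 was at 10.95, 10.26 and 10.65 in SM&M1, 0.68 ± 0.52 above PostDP. Of the E2F factors and E cyclins 4 of 5 were higher, with Ccne2 (1.72 ± 0.44), Ccne1 (1.69 ± 0.39) and E2f1 (1.47 ± 0.25) beside E2f8. E2f2 was at 9.82, 9.53 and 8.96 in SM&M1 and its difference of 0.83 ± 0.27 did not pass (adjusted p = 0.0604), although its arrays did not overlap.

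The count of 22 became 11 or 10 when PostDP replicate 2 or 3 was left out, 12 without SM&M1 replicate 1 and 14 with arrays centred on their median, and a fit of these groups alone called 33 higher and 1 lower. Calls lost without at least 1 of the arrays compared included Rrm2 (adjusted p up to 0.064), E2f8 (up to 0.105) and Gmnn (up to 0.0632), each still higher in SM&M1.

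SM&M1 was set against PreDP to see how far the level returned, a comparison added after the data were seen. Of the 42 genes, 3 were lower in SM&M1 and 0 higher, where limma called 24.5% of all genes tested, 10.3% lower and 14.2% higher. At an unadjusted p under 0.05, 9 were lower (21.4%) and 0 higher, against 15.1% and 19.2% of all genes. The median difference was -0.37, against 0.04 over all genes, and -0.05 without PreDP replicate 1. For 12 genes every SM&M1 array lay below every PreDP array, against 20.7% of all genes. E2f2, at 12.16, 11.96 and 12.15 in PreDP and at 9.82, 9.53 and 8.96 in SM&M1, was lower by -2.65 ± 0.27 (adjusted p = 6.74e-06). Ccne2, at 10.41, 9.48 and 10.22 against 8.37, 7.81 and 7.91, was lower by -2.01 ± 0.44 (adjusted p = 0.00403). For both genes the groups were far apart. Rfc5, at 10.41, 9.96 and 10.26 against 9.70, 9.67 and 9.55, was lower by -0.57 ± 0.18 (adjusted p = 0.0364).

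Larger differences that did not pass included Uhrf1 (-1.50 ± 0.52, adjusted p = 0.0524), E2f8 (-1.58 ± 0.67, adjusted p = 0.111) and Rrm2 (-1.40 ± 0.64, adjusted p = 0.142). Others differed little from PreDP in the mean, with intervals that allow a change either way. Pole differed by -0.06 (95% interval -1.45 to 1.32), Prim1 by -0.14 (-0.85 to 0.57), E2f1 by -0.01 (-0.56 to 0.54) and Rfc4 by 0.04 (-0.70 to 0.78). E2f2 and Ccne2 were lower in every setting run, while the count of lower genes was 8 in a fit of these groups alone and 7 without Tak1-deficient SM&M1 replicate 2. The call of Rfc5 was lost with no filter (adjusted p = 0.0726), after centring (0.135) and without any 1 of the 3 SM&M1 arrays, PreDP replicates 1 and 3 or PostDP replicate 2 (0.051 to 0.119).

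**Figure D4:**
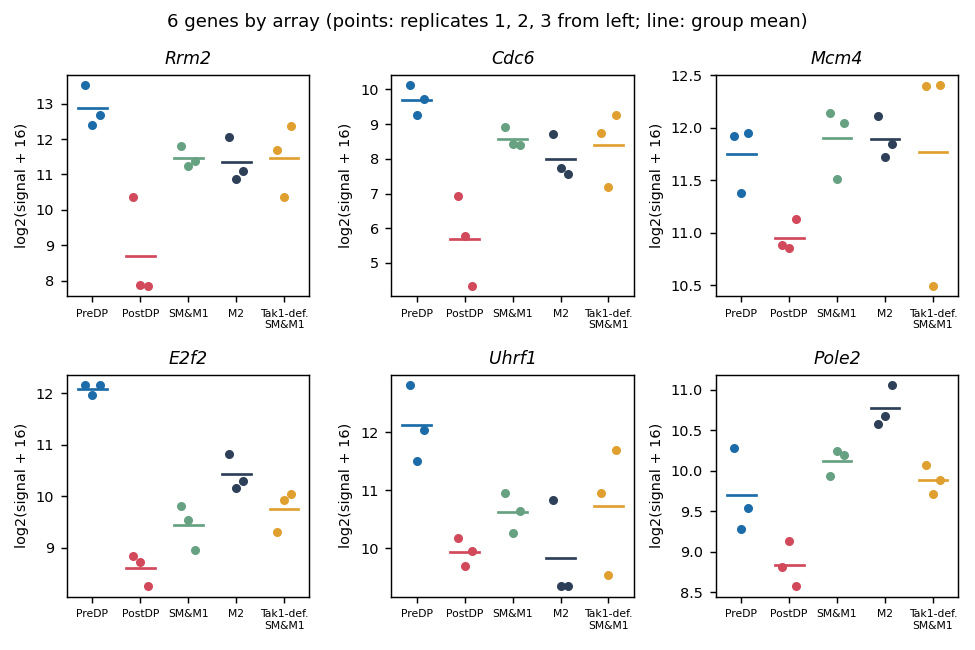
Points are log2(signal + 16) in each array for Rrm2, Cdc6, Mcm4, E2f2, Uhrf1 and Pole2, with replicates 1, 2 and 3 from left to right in each group and a line at the group mean; each panel has its own axis, which does not start at 0. E2f2 is near 12 in PreDP and between 8.25 and 10.82 in the other groups, and Pole2 is highest in M2.

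M2 cells were compared with SM&M1 cells to follow the last step of CD4 maturation in the thymus. None of the 42 replication genes passed in limma, where 2.33% of all genes tested were called (0.952% higher and 1.38% lower). At an unadjusted p under 0.05, 2 were higher (4.76%) and 3 lower (7.14%), near the 4.47% and 5.84% of all genes. The difference was negative for 37 genes and positive for 5, with a median of -0.29 against -0.01 over all genes (-0.53 without M2 replicate 1 and -0.18 without M2 replicate 2). These signs share the same 6 arrays, and the median of the 42 genes lay below the PreDP mean by more in M2 replicates 2 and 3 than in any SM&M1 array.

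The largest difference belonged to E2f2, which was at 9.82, 9.53 and 8.96 in SM&M1 and at 10.82, 10.16 and 10.29 in M2. Every M2 array was above every SM&M1 array, and the difference was 0.99 ± 0.27 (95% interval 0.41 to 1.56, adjusted p = 0.0855). It passed when SM&M1 and M2 were fitted alone with a term for replicate number, the paired analysis (adjusted p = 0.0489), with array weights (0.0271) and without Tak1-deficient SM&M1 replicate 2 (0.0487). Its other probe set differed by 0.94. Gins1, at 9.38, 8.98 and 9.20 in SM&M1 and at 9.02, 7.86 and 7.96 in M2, differed by -0.91 ± 0.39 (adjusted p = 0.416). Gins2, at 9.65, 9.11 and 9.45 against 9.18, 8.24 and 8.34, differed by -0.82 ± 0.42 (adjusted p = 0.589). For both GINS genes M2 replicate 1 overlapped the SM&M1 arrays and the other M2 arrays lay below them. Within each pair of same-numbered arrays the M2 value was the lower, for both genes. Pole2 was at 9.94, 10.24 and 10.19 in SM&M1 and at 10.58, 10.67 and 11.06 in M2, a non-overlapping difference of 0.64 ± 0.24 that did not pass (adjusted p = 0.305). Cdc6 (-0.56, 95% interval -1.88 to 0.75), Rrm2 (-0.12, -1.51 to 1.27) and Pcna (-0.08, -0.52 to 0.37) had intervals that include 0.

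Tak1-deficient SM&M1 cells were compared with SM&M1 cells to ask what differs without Tak1. Mouse line, Cre and the described sort change together with Tak1 here, so their parts in a difference cannot be told apart. None of the 42 replication genes passed in limma, where 1.69% of all genes tested were called (0.43% higher and 1.26% lower, or 0.11% and 0.708% with arrays centred on their median). At an unadjusted p under 0.05, 1 was higher (Pold1, 0.59 ± 0.20, adjusted p = 0.166) and 1 lower (Ccne1), each 2.38% of the genes, against 10.1% and 7.86% of all genes. The difference was positive for 20 genes and negative for 22, with a median of -0.06 against 0.05 over all genes. Replicate 2 of the Tak1-deficient group held the most extreme value of each of the 3 largest differences. Chaf1b was at 9.19, 9.43 and 9.26 in SM&M1 and at 9.74, 11.50 and 9.32 in the Tak1-deficient arrays, a difference of 0.90 ± 0.42 (adjusted p = 0.279). Mcm5 was at 12.76, 12.56 and 12.75 against 12.77, 9.80 and 12.87, a difference of -0.88 ± 0.60 (adjusted p = 0.443) that became 0.13 without replicate 2. Ccne1 was at 9.55, 9.27 and 9.23 against 8.82, 7.58 and 9.05, with every Tak1-deficient array lower, and differed by -0.87 ± 0.39 (adjusted p = 0.269); its other probe set differed by -0.07. Without replicate 2, 0 genes passed again and the median over the 42 genes was 0.24, against 0.04 over all genes. That median of the 42 genes was -0.12 without Tak1-deficient replicate 1 and -0.25 without replicate 3, against 0.06 and 0.07 over all genes. The macrophage sum was 851, 3344 and 2400 and the granulocyte sum 390, 3436 and 5212 in the 3 Tak1-deficient arrays. In the same arrays the CD4+CD8+ stage sum was 3715, 4282 and 6191, against 1611 to 3806 in SM&M1. The early thymocyte sum was 3063, 1810 and 5831, against 1513 to 3352 in SM&M1. The part of these markers in the values was not tested. With 3 arrays a group, intervals stayed wide, as for Rrm2 (0.00, 95% interval -1.38 to 1.39) and Cdc6 (-0.18, -1.50 to 1.13).

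**Figure D5:**
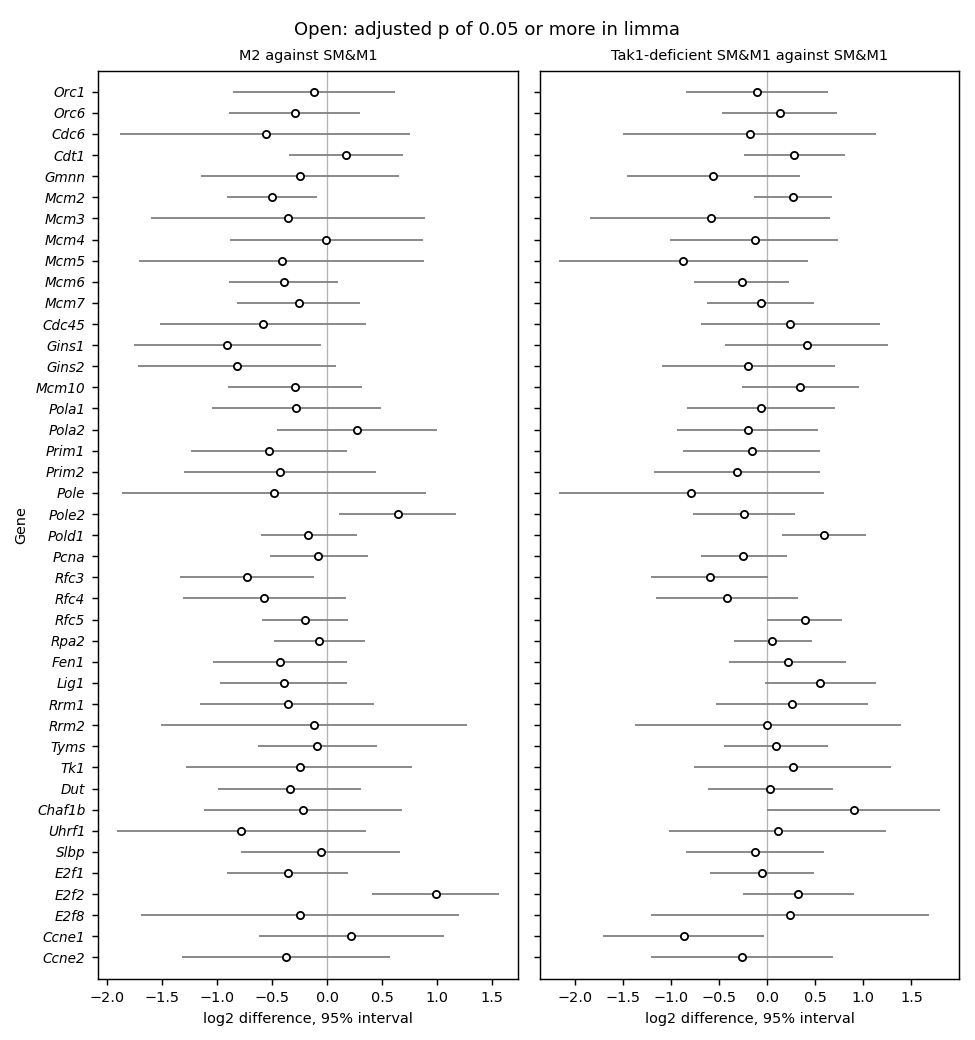
Points are differences in log2(signal + 16) for the 42 replication genes with 95% intervals, for M2 minus SM&M1 on the left and Tak1-deficient SM&M1 minus SM&M1 on the right. All points are open because none had an adjusted p under 0.05 in limma; E2f2 lies farthest above 0 on the left, at 0.99.

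Other genes of the same machinery were counted from a wider list of 56, of which 55 were tested. In PostDP against PreDP 14 were lower and 0 higher, against 7.57% and 7.35% of all genes tested, with a median of -0.41 against 0.01. The largest falls were in Clspn (-2.92 ± 0.40), a fork checkpoint mediator, Ccna2 (-2.72 ± 0.57), cyclin A2, and Hells (-2.59 ± 0.49), a chromatin remodeller. The calls comprised 8 of 20 fork genes, 3 of 8 nucleotide and chromatin genes, 2 of 13 E2F, pocket protein and S-phase kinase genes and 1 of 14 origin and helicase genes. In SM&M1 against PostDP 17 were higher and 1 lower, against 7.84% and 4.14% of all genes, with a median of 0.46 against 0.03. Chtf18 (2.77 ± 0.39), of an alternative clamp loader, and Hells (2.51 ± 0.49) rose most, and Rbl2 (-1.28 ± 0.26), a pocket protein that restrains E2F targets in resting cells, was lower. In the comparisons of M2 and of Tak1-deficient cells with SM&M1, 0 of the 55 passed, where 2.33% and 1.69% of all genes did. At an unadjusted p under 0.05 in limma, 4 were lower and 0 higher in M2, against 5.84% and 4.47% of all genes. In Tak1-deficient cells 2 were higher and 1 lower, against 10.1% and 7.86% of all genes. In SM&M1 against PreDP 4 were higher, led by E2f6 (1.22 ± 0.17), and 3 lower, led by Dck (-2.53 ± 0.45), deoxycytidine kinase, where 14.2% of all genes were higher and 10.3% lower.

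Mitosis genes were measured beside them, with 19 of 20 listed genes tested. In PostDP against PreDP 18 were lower, against 7.57% of all genes, with a median of -2.09 against 0.01, and Mki67 (-3.66 ± 0.56), Birc5 (-3.55 ± 0.79) and Bub1 (-3.45 ± 0.75) fell most. In SM&M1 against PostDP 10 were higher, against 7.84% of all genes, with a median of 1.62 against 0.03, led by Bub1 (3.04 ± 0.75) and Cdk1 (2.97 ± 0.74). In M2 against SM&M1 0 passed, against 2.33% of all genes, and 1 was higher at an unadjusted p under 0.05, against 4.47%. The mitosis differences there were positive for 17 of 19 genes, with a median of 0.26, where those of the replication genes were negative for 37 of 42; this contrast between lists was not tested. In Tak1-deficient SM&M1 against SM&M1 0 mitosis genes passed, against 1.69% of all genes, with a median of 0.15.

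Probe sets of 1 gene can differ, and 34 further probe sets of 26 of the genes lay above the level needed for testing. Their direction matched that of the probe set used in 30 of 34 cases in PostDP against PreDP, the others belonging to Cdc45, Pola2 and Prim2. It matched in 30 cases in SM&M1 against PostDP and in 29 in M2 against SM&M1. It matched in 21 cases in SM&M1 against PreDP, and in 19 in Tak1-deficient SM&M1 against SM&M1.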

How the data were processed

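Signal intensity of 45101 probe sets was measured in 15 arrays. Per the labels' protocols, the authors amplified RNA in a single round and labelled it with biotin. Which software gave the deposited intensity values is not given in the sources used here. The mean of each array after trimming 2% at each end is 500, by calculation from the values, and no further scaling was applied. The number of arrays limits the precision.

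Probe sets were named through the platform annotation, and only the 34945 with 1 gene were used. Each gene took the probe set whose mean over the arrays was highest. Genes above the array median in at least 3 arrays were tested. Values were log2(signal + 16), fitted with limma 3.58.1 in R 4.3.3 over all 15 arrays, with 1 mean per group, 10 residual degrees of freedom and Benjamini-Hochberg adjustment. The scripts were tested on simulated data.

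The genes, lists and comparisons were chosen with earlier results of these data known. For each role, values in every array are given for the 2 largest called differences and the smallest in PostDP against PreDP, and elsewhere for called members (up to 8 in a direction) or, where none was called, the 3 largest; others named with array values were chosen after their values were seen. The labels call the samples biological replicates without naming separate animals, so p-values measure the spread between samples, which may be technical. Deviations of same-numbered samples correlated at 0.339, 0.275 and 0.411 between PreDP and PostDP and at 0.553, 0.436 and 0.326 between SM&M1 and M2. The main fit had no term for replicate number, and pairing entered only the alternative fits with a replicate block. With that block and only the groups compared, 35 replication genes passed in PostDP against PreDP, where 30 did in the main fit. In M2 against SM&M1, 1 passed with it and 0 in the main fit.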

Additional observations from a re-analysis of the deposited data

How the results depend on the processing

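The alternatives run were fitting just the groups compared, a replicate block in that fit or over all arrays, other filters (none or the 75th percentile), quantile normalization, centring on array medians, the mean of all probe sets, a pseudocount of 1, trend and robust moderation, array weights and leaving out each array. For PostDP against PreDP the number of genes called was 27 to 37, and 23 to 35 with 1 array left out. For SM&M1 against PostDP it was 22, with 34 when only these groups were fitted (1 lower), 33 with array weights, 14 after centring and 18 to 25 in the other fits of all arrays, with 10 to 30 when 1 array was left out. For M2 against SM&M1 it was 0, but 1 (E2f2, higher) with the block in a fit of these groups, with array weights, and 0 to 1 with 1 array left out. In the Tak1 comparison it was 0 in all of them. For SM&M1 against PreDP it was 3, with 8 when its groups were fitted alone, 7 with the replicate block there, 5 with it over all arrays, 2 with no filter, 2 after centring, 4 with the 75th percentile filter and 4 with trend and robust moderation. It was 6 with the mean of probe sets (1 higher, 5 lower), 8 with array weights (1 higher, 7 lower) and 2 to 7 with 1 array left out (0 to 1 higher). In PostDP against PreDP the differences of Cdc45 (-1.01 with the mean of probe sets) and Pola2 turned in sign. Pola2 was 0.18 with the mean of probe sets, 0.05 with array weights, 0.16 without replicate 1 of both groups and -0.45 to 0.00 with 1 array left out. Mcm5 in Tak1-deficient SM&M1 against SM&M1 was 0.14 with the mean of probe sets, 0.05 with array weights, 0.13 without replicate 2 in a fit of the groups compared, and -1.41 to 0.13 with 1 array left out. In SM&M1 against PostDP, Cdc45 became 0.42 and Pola2 -0.27 with the mean of probe sets. Over all 42 genes and all settings, signs turned for 2 genes in PostDP against PreDP, 3 in SM&M1 against PostDP, 8 in M2 against SM&M1, 26 in the Tak1 comparison and 19 in SM&M1 against PreDP, and for 0 of the genes called. The cause was not tested, beyond the probe sets and arrays left out. Centring moved the median of all genes in PostDP against PreDP to -0.13 and that of the replication genes to -1.37. Same-numbered samples did not deviate together between SM&M1 and PostDP (-0.0103, 0.124 and 0.026), where the block called 32 genes, nor in the Tak1 comparison (-0.174, -0.192 and -0.244) or SM&M1 against PreDP (-0.128, 0.165 and -0.0626). In the fit of only the groups, the block added 6 calls and removed 1 in PostDP against PreDP, and added E2f2 in M2 against SM&M1, all given with those genes. It added 11 and removed 1 in SM&M1 against PostDP, and added 5 (Cdc6, Rrm2, Dut, Uhrf1 and E2f8) and removed Rfc5 (adjusted p = 0.0761) in SM&M1 against PreDP. Over all arrays it added Rfc3 (adjusted p = 0.0428) in PostDP against PreDP, Mcm6 (0.0457) in SM&M1 against PostDP and Uhrf1 (0.0135) and E2f8 (0.0414) in SM&M1 against PreDP. It changed no call of the 42 genes in the Tak1 comparison. The alternatives that leave out replicate 1 of both groups, the fit of the Tak1 groups without replicate 2, and the comparison of SM&M1 with PreDP were chosen after seeing the data. Signal over background limits dim genes.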
